A study of Homo sapiens with 15 samples.

Results

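The genes described here encode the enzymes that turn arachidonic acid into prostaglandins, thromboxane and leukotrienes. They are 10 genes given by name: the cyclooxygenases PTGS1 and PTGS2, the prostaglandin E synthases PTGES and PTGES2, the thromboxane synthase TBXAS1, the prostaglandin D synthases PTGDS and HPGDS, and the leukotriene genes ALOX5, ALOX5AP and LTA4H. All 10 were among the 60510 genes of the resistance table, and 7 were among the 17769 genes of the knockout table, where PTGS2, PTGES and HPGDS had no row.

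RNA-seq was performed on K562, a BCR-ABL1-positive chronic myeloid leukemia cell line, to ask how loss of either cytosolic HSP90 chaperone and acquired resistance to an HSP90 inhibitor change gene expression. Among the knockout libraries 3 are of HSP90α-KO cells, 3 of HSP90β-KO cells and 3 of cells with an empty vector (EV). All came from cells given Cas9 by lentivirus. Guide RNAs targeted HSP90AA1 or HSP90AB1 in the KO groups, and transduced cells were selected by a fluorescent marker. The study labels its K562 knockouts as clones. The resistance table holds 3 libraries of parental cells kept in the solvent DMSO and 3 of PUHr cells, clones grown in rising amounts of the HSP90 inhibitor PU-H71. The labels do not say how many clones stand behind a group, so clone and genotype, or clone and resistance, cannot be told apart. Libraries had between 19594381 and 26216730 reads on listed genes, so that 1 read was worth 0.0381 to 0.0518 CPM, reads scaled to library size. The study calls the replicates independent, and the labels do not say whether they were separate cultures or clones, so p-values measure only the spread between these libraries. The tables were normalized separately, so levels are set across them below without a test.

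Cyclooxygenases oxidize arachidonic acid to prostaglandin H2, which dedicated synthases then turn into prostaglandins E2 and D2 or into thromboxane A2. In the other branch the 5-lipoxygenase ALOX5, helped by its membrane partner ALOX5AP, makes leukotriene A4, and LTA4H hydrolyses that to leukotriene B4. The thromboxane branch is known from platelets and their precursors, and the leukotriene branch from mast cells and other myeloid cells. PTGES3, the cytosolic prostaglandin E synthase, is also known as p23, a co-chaperone of HSP90.

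The knocked-out genes were read first as a check of the labels. HSP90AA1 had 15069, 14161 and 18708 reads in the EV libraries, 1897, 1698 and 1768 in HSP90α-KO, and 25547, 27899 and 30559 in HSP90β-KO. HSP90AB1 had 59375, 57731 and 73777 reads in EV, 66918, 63892 and 65145 in HSP90α-KO, and 40666, 44747 and 47724 in HSP90β-KO. Each targeted gene was thus lowest in its own knockout, with transcript left in both. In the resistance table HSP90AA1 had a mean of 1712 CPM in parental and 1568 CPM in PUHr cells, and HSP90AB1 4531 and 3847 CPM. On the log2 scale HSP90AA1 fell by 0.13 and HSP90AB1 fell by 0.24 in PUHr (limma adjusted p = 4.7e-05 and 1.9e-07), but with quantile normalization both were higher, by 0.08 and 0.05 (limma adjusted p = 0.00038 and 0.031). Of the 10 erythroid genes expected in K562, 9 were in the knockout table, and their summed level was 691, 730.0 and 710.3 CPM in the EV libraries, 535, 525 and 492 CPM in HSP90α-KO and 581, 592 and 572 CPM in HSP90β-KO. By adjusted p, 6 of the 9 were lower in HSP90α-KO, with ALAS2 at -1.56, and 3 were higher: GATA1 at 0.18, KLF1 at 0.24 and EPOR at 0.41. Over all tested genes 26.6% were lower there and 27.5% higher. In HSP90β-KO 6 of the 9 were also lower and 0 higher, against 17.2% of all tested genes each way. The most abundant of the 9 was ALAS2 in every EV and HSP90β-KO library and GATA1 in every HSP90α-KO library, and none of the 9 was at 0 reads in any knockout library. In the resistance table the 10 genes summed to between 1331 and 1454 CPM, with HBZ highest in all libraries but parental replicate 1, where HBG1 had 7965 reads against 7756.

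In the GENCODE annotation of GRCh38, PTGS1 (ENSG00000095303) is on chromosome 9 from 122370530 to 122395703, TBXAS1 (ENSG00000059377) on chromosome 7 from 139777051 to 140020325, ALOX5 (ENSG00000012779) on chromosome 10 from 45374176 to 45446119 and ALOX5AP (ENSG00000132965) on chromosome 13 from 30713478 to 30764426, all on the plus strand. Promoter sequences are shown for the members described below as differing most that had an entry, 250 bases before the RefSeq start site on GRCh38.p14, read 5′ to 3′ on the strand of the gene. Entries were found for 9 of the 10 members in the RefSeq promoter set used here; ALOX5 had no entry in that set. The windows are chr9:122370283-122370532 (plus strand) for PTGS1, the first of 2 entries of this gene (the other being chr9:122375052-122375301, plus strand), chr7:139829014-139829263 (plus strand) for TBXAS1, which lies inside the longer gene of the GENCODE annotation, and chr13:30713235-30713484 (plus strand) for ALOX5AP. Capitals mark matches, on either strand, to the motif known for GATA factors, spelled AGATAA, or to the core known for ETS factors, spelled AGGAAG.
PTGS1: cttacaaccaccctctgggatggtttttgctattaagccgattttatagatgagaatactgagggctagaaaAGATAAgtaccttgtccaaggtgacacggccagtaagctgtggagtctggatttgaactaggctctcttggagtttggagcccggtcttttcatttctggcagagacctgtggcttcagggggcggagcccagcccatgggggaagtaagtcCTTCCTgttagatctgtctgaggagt
TBXAS1: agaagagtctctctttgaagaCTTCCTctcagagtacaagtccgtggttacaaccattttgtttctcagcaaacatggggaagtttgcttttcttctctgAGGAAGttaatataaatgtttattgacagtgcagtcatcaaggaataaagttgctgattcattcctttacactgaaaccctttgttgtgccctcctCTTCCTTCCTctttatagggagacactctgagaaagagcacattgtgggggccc
ALOX5AP: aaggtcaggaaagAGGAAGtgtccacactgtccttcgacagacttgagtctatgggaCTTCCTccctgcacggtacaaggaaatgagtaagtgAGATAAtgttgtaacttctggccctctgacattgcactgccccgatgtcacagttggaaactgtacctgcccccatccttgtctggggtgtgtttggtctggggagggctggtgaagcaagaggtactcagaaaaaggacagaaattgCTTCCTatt
The PTGS1 window shown held 1 AGATAA and 1 AGGAAG match, while the other PTGS1 window held 0 and 1; the TBXAS1 window held 0 and 4, some of them overlapping, and the ALOX5AP window 1 and 3. Over all 35116 promoter windows of this length, 9.17% held AGATAA and 28.7% held AGGAAG. The heat shock element GAANNTTC, present in 5.78% of all windows, was in none of the 3 windows, and among the other members it was in those of PTGS2 and LTA4H. The windows were poor in CpG, with 4 for the PTGS1 window shown (7 in the other), 1 for TBXAS1 and 3 for ALOX5AP against a median of 11 over all windows.

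PTGS1, the constitutive cyclooxygenase, was lower in both knockouts and in the resistant cells. It had 1778, 1878 and 2267 reads in the EV libraries, 1159, 1162 and 1123 in HSP90α-KO and 756, 838 and 890 in HSP90β-KO. As levels this was 87.2 ± 3.06 CPM in EV, 58.1 ± 1.86 CPM in HSP90α-KO and 35.7 ± 0.414 CPM in HSP90β-KO (mean ± SD, n = 3). The 3 groups did not overlap, with HSP90β-KO lowest. On the log2 scale PTGS1 fell by 0.58 in HSP90α-KO (SE 0.04, limma adjusted p = 4.1e-12) and fell by 1.29 in HSP90β-KO (SE 0.04, limma adjusted p = 1.2e-18). The direct comparison put HSP90α-KO above HSP90β-KO by 0.70 (limma adjusted p = 5.7e-14). Both knockouts are compared with the same EV libraries here and throughout. PTGS1 reads of the resistance table were 1305, 1323 and 1192 reads in parental and 813, 724 and 714 in PUHr libraries, or 55.5 ± 0.372 and 31.6 ± 1.20 CPM. Every PUHr library lay below every parental one, and the log2 level fell by 0.81 (SE 0.04, limma adjusted p = 4.9e-10). In bulk samples, fewer cells that express a gene and less RNA per cell cannot be told apart.

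PTGS2, the inducible cyclooxygenase, was near the limit of detection. The resistance table listed 2, 4 and 2 reads in parental cells and 0 in all 3 PUHr libraries, where 0 reads allow up to 3 reads per library. No difference can be read at this depth.

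Among the prostaglandin E synthases, PTGES2 was well expressed and moved little. Its level was 62.5 ± 4.44 CPM in EV, 63.3 ± 4.48 CPM in HSP90α-KO and 72.1 ± 2.08 CPM in HSP90β-KO, the last above all EV libraries. The log2 difference from EV was 0.02 in HSP90α-KO (SE 0.05, limma adjusted p = 0.80), and PTGES2 rose by 0.21 in HSP90β-KO (SE 0.05, limma adjusted p = 0.0021), a call lost without the intensity trend (limma adjusted p = 0.065). In PUHr cells it fell by 0.18 (SE 0.04, limma adjusted p = 0.00091), from 98.1 ± 4.64 to 86.7 ± 1.78 CPM. PTGES, the inducible synthase, had 3, 4 and 2 reads in parental and 3, 2 and 3 in PUHr libraries and was not tested. The co-chaperone PTGES3 rose by 0.21 in HSP90α-KO and by 0.19 in HSP90β-KO (limma adjusted p = 6.7e-07 and 5.4e-06), and its log2 difference in PUHr was 0.04 (limma adjusted p = 0.13), or 0.12 with quantile normalization (limma adjusted p = 0.0020).

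TBXAS1, which makes thromboxane A2, was higher in HSP90α-KO. Its reads were 206, 166 and 264 in EV, 463, 455 and 422 in HSP90α-KO, and 249, 247 and 295 in HSP90β-KO. All HSP90α-KO libraries stood above all others of the table at 22.6 ± 0.954 CPM, against 9.29 ± 1.12 CPM in EV and 11.4 ± 0.721 CPM in HSP90β-KO. TBXAS1 rose by 1.28 in HSP90α-KO (SE 0.08, limma adjusted p = 5.5e-13) and by 0.29 in HSP90β-KO (SE 0.08, limma adjusted p = 0.0069), and the knockouts differed by 0.99 (limma adjusted p = 7.6e-11). The HSP90β-KO call was lost without EV replicate 2, at 0.19 (limma adjusted p = 0.067), and without the intensity trend (limma adjusted p = 0.053). TBXAS1 reads of the resistance table were 183, 177 and 180 reads in parental and 235, 275 and 199 in PUHr libraries. It rose by 0.33 there (SE 0.10, limma adjusted p = 0.015), a call lost without parental replicate 2, at 0.29 (limma adjusted p = 0.060), and without PUHr replicate 2, at 0.22 (limma adjusted p = 0.067), and also without the intensity trend (limma adjusted p = 0.064). The TBXAS1 gene overlaps HIPK2 on the other strand with 0 shared exonic bases. HIPK2 had log2 differences of 0.83 in HSP90α-KO, -0.16 in HSP90β-KO and 0.85 in PUHr, and whether its reads enter the TBXAS1 count was not tested.

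The prostaglandin D synthases were barely detected. PTGDS shares 634 exonic bases with ENSG00000284341 on the same strand, and whether this overlap affects its count was not tested. PTGDS had 4, 7 and 1 reads in EV, 10, 10 and 9 in HSP90α-KO and 3, 7 and 4 in HSP90β-KO. The HSP90α-KO libraries were above the rest by a few reads each, and PTGDS passed the filter on low values only through them, so its direction follows from the filter and no p is read. Pooled reads were 2.77-fold those of EV, and the fitted difference was 1.22, or 0.74 without EV replicate 3. PUHr libraries held 3, 0 and 0 reads of PTGDS against 8, 4 and 4 in parental cells. HPGDS, the hematopoietic form of the enzyme, had 0 reads in the 3 parental libraries and 1 in each PUHr library. Detection limits given here cover counting error only.

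ALOX5, the 5-lipoxygenase, moved in opposite directions in HSP90α-KO and PUHr cells. It had 515, 537 and 682 reads in EV, 1235, 1086 and 1008 in HSP90α-KO, and 468, 544 and 585 in HSP90β-KO. HSP90α-KO libraries lay above all others, at 56.1 ± 4.27 CPM against 25.5 ± 0.840 CPM in EV and 22.9 ± 0.502 CPM in HSP90β-KO. ALOX5 rose by 1.13 in HSP90α-KO (SE 0.05, limma adjusted p = 1.1e-15) and fell by 0.15 in HSP90β-KO (SE 0.05, limma adjusted p = 0.033). That small fall missed the threshold in 7 of 20 alternative analyses, while the difference between the knockouts was 1.29 (limma adjusted p = 4.5e-17). ALOX5 reads of the resistance table were 136, 205 and 152 reads in parental and 27, 42 and 32 in PUHr libraries. The groups did not overlap, at 7.16 ± 1.43 and 1.42 ± 0.336 CPM, and the log2 level fell by 2.27 (SE 0.18, limma adjusted p = 8.9e-08).

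ALOX5AP, the 5-lipoxygenase activating protein, was near the detection limit outside HSP90α-KO. It had 1, 4 and 1 reads in EV, 60, 59 and 54 in HSP90α-KO, and 0, 3 and 0 in HSP90β-KO. The gene passed the filter only through the HSP90α-KO libraries, which reached 2.92 ± 0.142 CPM, so here too no p is read. Pooled reads were 33.1-fold higher in HSP90α-KO than in EV, a direction that follows from the filter. Against HSP90β-KO, with at most 3 reads per library, the level was at least 22.5-fold higher, computed against 3 reads per library. Parental cells had 3, 3 and 2 reads and PUHr cells 1, 0 and 0, all at or under 3 reads, so no fold is given.

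LTA4H, the leukotriene A4 hydrolase, differed little between groups. Its levels were 60.8 ± 2.49 CPM in EV, 69.8 ± 5.98 CPM in HSP90α-KO and 67.2 ± 1.03 CPM in HSP90β-KO, and 54.4 ± 1.45 CPM in parental against 55.0 ± 0.778 CPM in PUHr cells. It rose by 0.20 in HSP90α-KO (SE 0.05, limma adjusted p = 0.0012) and by 0.15 in HSP90β-KO (SE 0.05, limma adjusted p = 0.021), the latter lost without EV replicate 2 at 0.11 (limma adjusted p = 0.10), without HSP90β-KO replicate 1 at 0.14 (limma adjusted p = 0.074) and without HSP90β-KO replicate 2 at 0.14 (limma adjusted p = 0.059), and also with quantile normalization, with median centring and without the intensity trend. The log2 difference in PUHr was 0.02 (SE 0.04, limma adjusted p = 0.71).

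**Figure D1:**
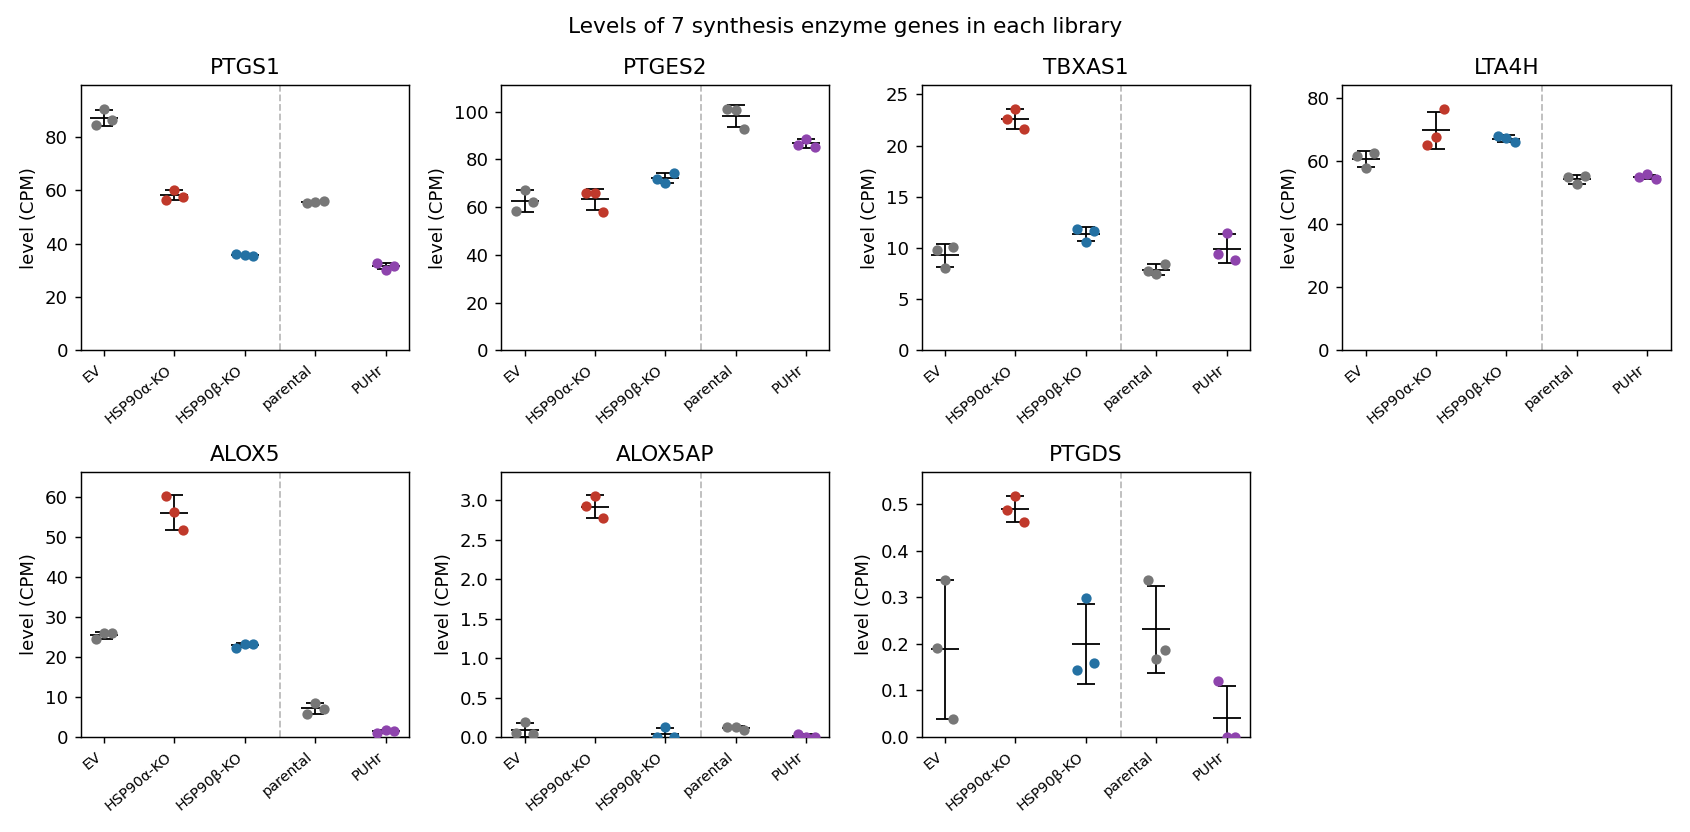
Level (CPM, linear axis from 0) of 7 member genes in each library, as points, with the mean and SD of 3 libraries in black; the dashed line divides the separately normalized knockout (left) and resistance (right) tables. HSP90α-KO libraries stand above EV for TBXAS1, ALOX5 and ALOX5AP, and PTGS1 is lowest in HSP90β-KO and PUHr within its table.

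Counted together, where a gene counts as changed when its adjusted p is below 0.05 and its log2 fold change lies beyond 1 or -1, 2 of the 5 members that pass the filter without the HSP90α-KO libraries were higher in HSP90α-KO (TBXAS1 and ALOX5), against 5.32% of the 17039 tested genes, and 0 were lower, against 5.01%. PTGDS and ALOX5AP are left out of these counts. The shares of all tested genes, here and below, keep genes that pass the filter only through 1 group. Among 12342 genes averaging at least 1 on the log2 CPM scale, 355 were changed upward in HSP90α-KO and 362 downward. By adjusted p alone 3 members were higher and 1 lower, where 27.5% and 26.6% of all tested genes were. In HSP90β-KO 0 members were changed upward (1.83% of all) and 1, PTGS1, downward (2.65%); by adjusted p alone 3 were higher and 2 lower, against 17.2% each way. Of 5 members tested in PUHr cells, 0 were changed upward (5.37% of 16503 genes) and 1, ALOX5, downward (4.69%). By adjusted p alone 1 was higher and 3 lower, against 25.6% and 25.8%. Between the knockouts 30.1% of all tested genes were higher in HSP90α-KO by adjusted p and 29.8% lower; of the same 5 members, 3 were higher (PTGS1, TBXAS1 and ALOX5) and 1, PTGES2, was lower.

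**Figure D2:**
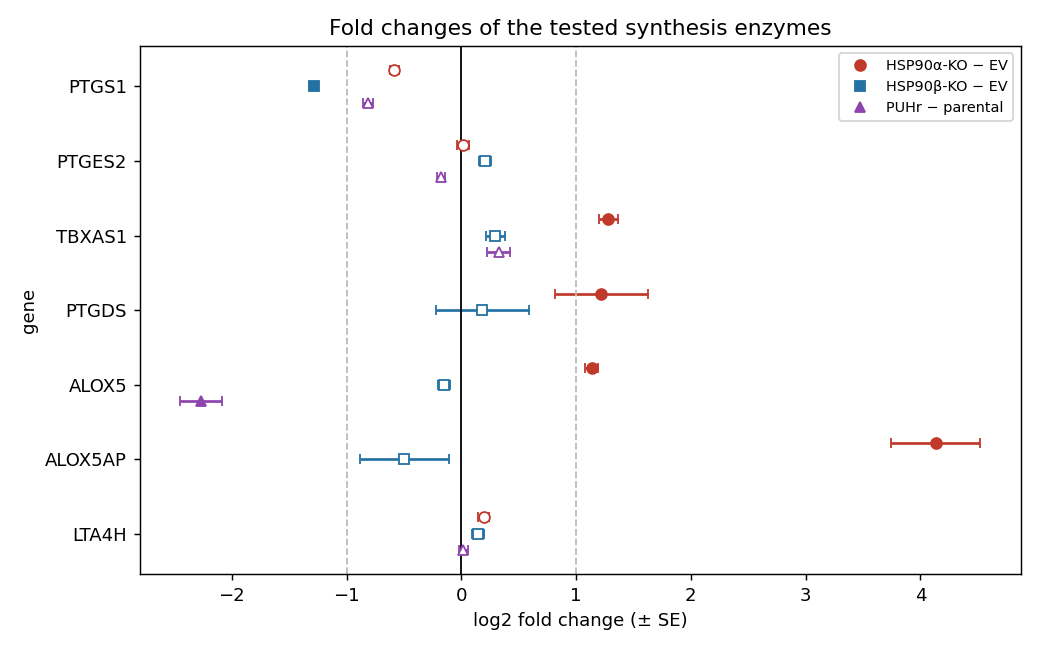
Log2 fold change with its SE for the tested members in 3 comparisons; filled symbols are past both thresholds, open symbols are not, and dashed lines mark 1 and -1; the symbols of PTGDS and ALOX5AP for HSP90α-KO follow from the filter. ALOX5 lies at 1.13 for HSP90α-KO and at -2.27 for PUHr, and PTGS1 lies below 0 in all 3 comparisons.

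Levels were compared between members as CPM per kb of merged exons, which join the exons of all annotated transcripts of a gene. These lengths were 3.73 kb for ALOX5, 5.78 kb for PTGS1, 6.08 kb for PTGES2 and 7.41 kb for LTA4H. The order depends on them, and which transcripts the cells made was not tested. In EV the order was PTGS1 at 15.1 ± 0.528, PTGES2 at 10.3 ± 0.730, LTA4H at 8.21 ± 0.337, ALOX5 at 6.83 ± 0.225 and TBXAS1 at 1.503 ± 0.182 CPM per kb. In HSP90α-KO ALOX5 led at 15.05 ± 1.15 CPM per kb, followed by PTGES2 at 10.4 ± 0.737, PTGS1 at 10.1 ± 0.321 and LTA4H at 9.43 ± 0.807, of which the last 3 were within their spread of each other. By mean CPM without length ALOX5 did not lead there, at 56.1 against 69.8 for LTA4H, 63.3 for PTGES2 and 58.1 for PTGS1. PTGES2 led in HSP90β-KO at 11.8 ± 0.341, with PTGS1 and ALOX5 level at 6.17 ± 0.0716 and 6.14 ± 0.135 CPM per kb. Parental cells also had PTGES2 first, at 16.1 ± 0.762, with ALOX5 at 1.92 ± 0.382, and PUHr cells had ALOX5 at 0.381 ± 0.0901 CPM per kb.

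Set per length within each library, ALOX5 was 0.449, 0.444 and 0.467 of PTGS1 in EV. The same ratio was 1.65, 1.45 and 1.39 in HSP90α-KO and 0.960, 1.01 and 1.02 in HSP90β-KO. Per kb of merged exons ALOX5 thus exceeded PTGS1 in all HSP90α-KO libraries, where ALOX5 was higher and PTGS1 lower than in EV. On this measure it was level with PTGS1 in HSP90β-KO, where PTGS1 was lower. By mean CPM without length ALOX5 and PTGS1 were at 56.1 and 58.1 in HSP90α-KO and at 22.9 and 35.7 in HSP90β-KO. In the resistance table the ratio was 0.162, 0.240 and 0.198 in parental and 0.0515, 0.0900 and 0.0695 in PUHr cells.

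**Figure D3:**
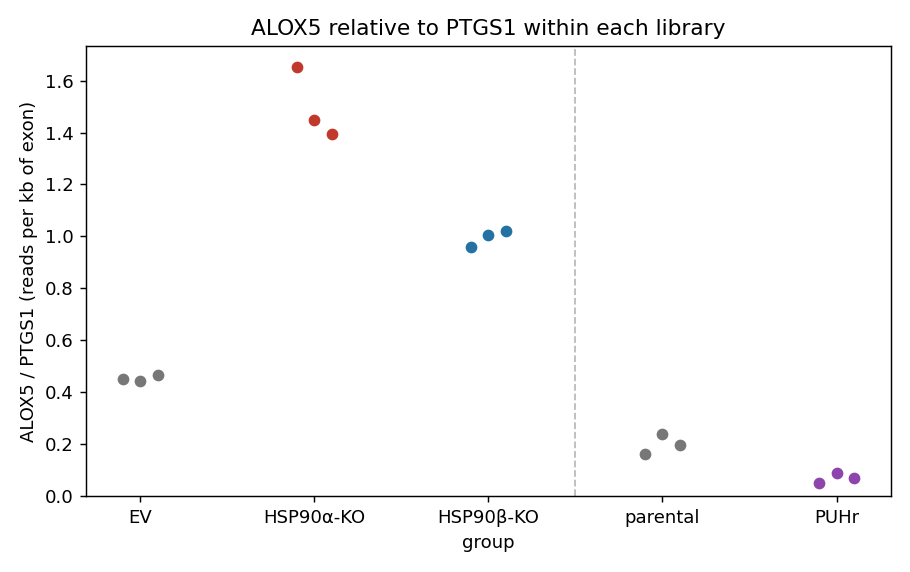
Ratio of ALOX5 to PTGS1, each as reads per kb of merged exon, in every library (points, linear axis from 0); the dashed line divides the 2 tables. HSP90α-KO libraries lie between 1.39 and 1.65, and EV libraries between 0.444 and 0.467.

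Genes near the members on their chromosomes are given by their medians. Over the other tested genes starting within 5 Mb, the median log2 difference in HSP90α-KO was -0.12 around ALOX5 (51 genes), -0.09 around TBXAS1 (54 genes) and 0.07 around ALOX5AP (29 genes), beside -0.01 over all tested genes. Around PTGS1 it was 0.00047 in HSP90β-KO (51 genes), and around ALOX5 in PUHr it was -0.03 (51 genes). Between the knockouts the 51 genes around ALOX5 had a median of -0.34, opposite in sign to the 1.29 of ALOX5.

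Of the wider eicosanoid pathway, 59 genes for arachidonic acid release, other lipoxygenases and synthases, leukotriene processing, breakdown and receptors, 34 could be tested with the knockouts and 35 with PUHr. Of these, 33 and 28 pass the filter without the libraries of any 1 group and are counted here. By adjusted p, 8 were higher and 13 lower in HSP90α-KO, with a median log2 difference of -0.19, beside -0.01 for all tested genes. In HSP90β-KO 10 were higher and 7 lower with a median of 0.04, and in PUHr 11 were higher and 8 lower with a median of 0.06, beside 0.0016 and 0.0047 for all. Over all tested genes the shares higher and lower were 27.5% and 26.6% in HSP90α-KO, 17.2% each way in HSP90β-KO, and 25.6% and 25.8% in PUHr. Genes that pass only through 1 group are given below by their reads, with no p. Their direction follows from the filter, and folds given for them only restate the reads.

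GGT5, which turns leukotriene C4 into leukotriene D4 by removing its gamma-glutamyl residue, had 86, 68 and 111 reads in EV and 1619, 1447 and 1357 in HSP90α-KO. It rose by 4.24 in HSP90α-KO (limma adjusted p = 1.6e-22), and in the resistance table it had 39, 39 and 23 reads in parental and 7, 1 and 0 in PUHr cells. DPEP2, a dipeptidase acting on leukotriene D4, had 30, 38 and 35 reads in parental and 12, 8 and 5 in PUHr cells and was 1.17 higher in HSP90α-KO than in HSP90β-KO (limma adjusted p = 1.0e-06). HPGD, which inactivates prostaglandins, had 0, 2 and 2 reads in EV, 42, 47 and 47 in HSP90α-KO and 11, 6 and 11 in HSP90β-KO, at least 17.2-fold and 3.03-fold higher when set against 3 reads per library. In PUHr HPGD rose by 1.24 (limma adjusted p = 5.6e-05).

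PTGR1, a reductase of prostaglandin and leukotriene breakdown, had 174, 163 and 244 reads in EV, 240, 231 and 233 in HSP90α-KO and 0 in all 3 HSP90β-KO libraries, at least 65.2-fold lower than EV. PTGR1 also had 106, 128 and 120 reads in parental and 0, 1 and 0 in PUHr cells, at least 40.8-fold lower when set against 3 reads per library. PLA2G4A, the phospholipase that releases arachidonic acid, had 416, 403 and 356 reads in parental and 5, 4 and 7 in PUHr cells. PLAAT3, another phospholipase, rose by 1.15 in HSP90β-KO (limma adjusted p = 6.0e-05) and by 2.22 in PUHr (limma adjusted p = 1.7e-09). In HSP90α-KO PLAAT3 fell by 0.95 (limma adjusted p = 0.00031). AKR1B1, an aldo-keto reductase, had 2, 4 and 5 reads in parental and 55, 46 and 42 in PUHr cells. The prostaglandin E receptor PTGER3 fell by 1.27 in HSP90α-KO (limma adjusted p = 2.7e-17). PTGER3 rose by 0.45 in HSP90β-KO and by 0.97 in PUHr (limma adjusted p = 9.0e-08 and 1.9e-10).

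**Figure D4:**
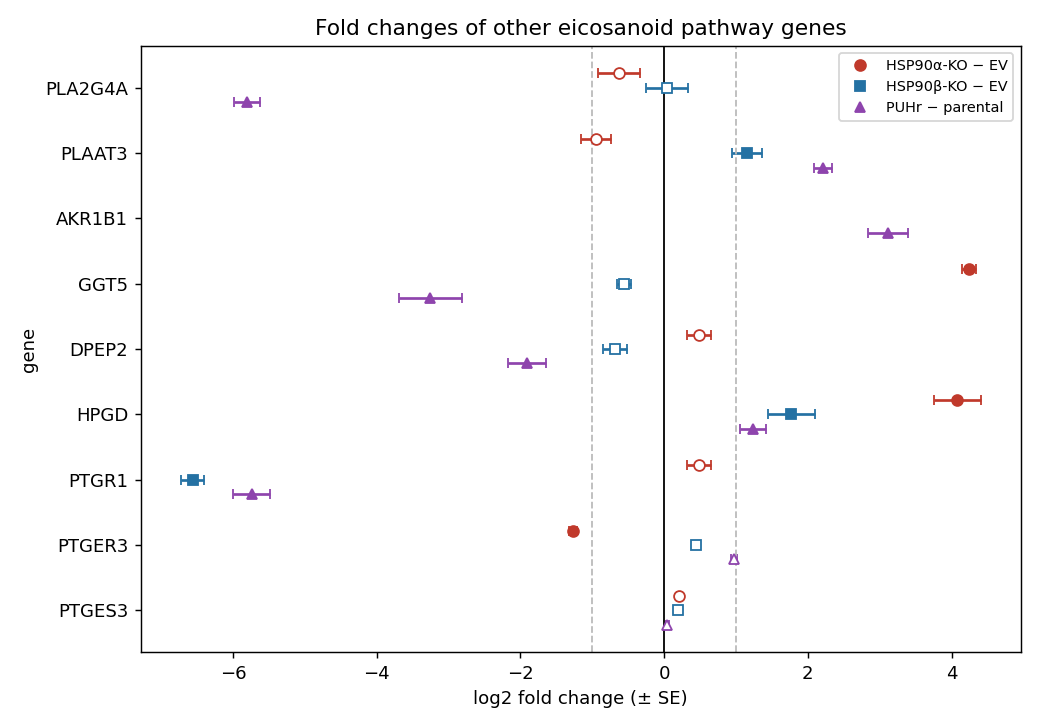
Log2 fold change with its SE of the changed genes of the wider pathway and of PTGES3 in 3 comparisons; filled symbols are past both thresholds and dashed lines mark 1 and -1. In PUHr the directions of PLA2G4A, AKR1B1, GGT5, DPEP2 and PTGR1 follow from the filter, as does that of HPGD in HSP90α-KO. GGT5 lies at 4.24 for HSP90α-KO and -3.25 for PUHr. The PUHr value of GGT5 rests on 7, 1 and 0 reads and ran from -4.29 to -0.34 over the alternatives. Fitted values of PTGR1 and HPGD depend on the offset added to groups with 3 or fewer reads per library.

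Markers of other blood cell types were read beside the members. Of 7 mast cell and basophil genes, 3 were in the knockout table, and their summed level was 9.32, 10.7 and 10.1 CPM in EV, 45.8, 44.5 and 45.1 CPM in HSP90α-KO and 9.58, 10.8 and 10.5 CPM in HSP90β-KO. Their most abundant gene, KIT, rose by 2.04 in HSP90α-KO (limma adjusted p = 5.1e-19). MS4A2, which is part of the sum, had 145, 132 and 135 reads there against 0, 2 and 4 in EV. It passes the filter only through HSP90α-KO, so its direction follows from the filter. The other gene of the list, HDC, did not follow KIT, with 10, 11 and 14 reads against 13, 25 and 20 (-0.45, limma adjusted p = 0.13). In HSP90β-KO the list was mixed too: HDC rose by 1.54 (limma adjusted p = 1.7e-05), KIT fell by 0.26 (limma adjusted p = 0.0046), and MS4A2 had 1, 2 and 1 reads. In the resistance table TPSAB1, CPA3 and FCER1A were at 0 reads in all parental libraries. The list summed to 8.79, 7.93 and 8.30 CPM in parental and 9.72, 8.49 and 9.70 CPM in PUHr. KIT rose by 0.68 in PUHr (limma adjusted p = 5.4e-05). HDC had 66, 65 and 46 reads in parental and 7, 6 and 4 in PUHr cells. It passes the filter there only through the parental libraries, so its direction follows from the filter. The part of these markers in the ALOX5 and ALOX5AP values was not tested.

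Of 10 megakaryocyte genes, 4 were in the knockout table, with summed levels from 12.5 to 18.3 CPM led by ITGA2B. In HSP90α-KO 2 of the 3 tested genes were lower by adjusted p, TUBB1 at -0.97 and GP1BA at -0.39, against 26.6% of all tested genes. In HSP90β-KO 2 were lower, ITGA2B at -0.45 and GP1BA at -0.59, against 17.2% of all. The same list in the resistance table summed to 19.6, 20.8 and 20.3 CPM in parental and 17.6, 15.1 and 16.1 CPM in PUHr, lower in every PUHr library. ITGA2B fell by 1.11, TUBB1 fell by 0.61 and ITGB3 rose by 0.89 (limma adjusted p = 1.7e-07, 0.0016 and 0.00071). VWF had 6, 6 and 2 reads in parental and 35, 27 and 27 in PUHr, PPBP 2, 8 and 10 against 28, 32 and 29, and GP6 3, 4 and 3 against 15, 21 and 15, and these 3 genes pass the filter only through PUHr. The part of these markers in the TBXAS1 values was not tested. The 3 of 9 monocyte and granulocyte genes in the knockout table summed to 162.0 to 165 CPM in EV, 161 to 163 CPM in HSP90α-KO and 122 to 126 CPM in HSP90β-KO, led by ITGAM. Within the HSP90α-KO sum LYZ rose by 0.58 (limma adjusted p = 2.9e-10), while CEBPA fell by 1.11 and ITGAM fell by 0.27 (limma adjusted p = 1.1e-07 and 3.0e-07). That list in the resistance table summed to 57.0 to 59.4 CPM in parental and 44.9 to 48.9 CPM in PUHr cells, with MPO and ELANE at 0 reads in every library.

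The genes nearest to 3 members in their 3 log2 differences were sought among 11726 genes whose log2 CPM averaged at least 1 in each table. For PTGS1 the nearest was KCNE3, at a Euclidean distance of 0.23, followed by a gene without a symbol, ENSG00000226396, at 0.35. TBXAS1 was nearest to CRIM1 at 0.17 and ID1 at 0.18, and ALOX5 to TRANK1 at 0.29 and SLAMF6 at 0.30.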

How the data were processed

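Reads had been aligned to GRCh38 and counted per gene with featureCounts, and the authors deposited 2 tables of log2 CPM made with edgeR. The study names a stranded mRNA library kit, but whether strand was used in counting is not given in the sources used here. The submitters' processing notes name FastQC, MultiQC, STAR, featureCounts and edgeR. Whole reads were recovered from the steps of the values, 100% of them within 0.1 read. Rows without an identifier held 0.027% to 0.036% of the reads and were left out.

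Groups were compared on the deposited log2 CPM with limma 3.58.1 in R 4.3.3 (1 fit per table, intensity trend, Benjamini-Hochberg adjustment over all tested genes), after checking the code on simulated data. Genes were tested where 3 libraries or more reached a log2 CPM of -1. Fold changes are on the scale of log2 CPM with the offset of about 2 reads already in the tables, which understates changes of low genes. Levels per kb used GENCODE exons. The pathway genes named are those changed, at most 8 per comparison; the rest of the names follow from the lists. The members, lists and motifs were chosen with earlier results of these data known. Alternatives covered filters, offsets, scaling, the intensity trend, voom on recovered reads, a replicate block, and leaving out each library.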

Additional observations from a re-analysis of the deposited data

Results flagged for a closer look

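The 2 knockouts were compared directly, where 30.1% of all tested genes were higher in HSP90α-KO by limma's adjusted p and 29.8% lower, so a difference by itself sets no member apart. HSP90α-KO was above HSP90β-KO by 1.29 for ALOX5, 0.99 for TBXAS1 and 0.70 for PTGS1 on the log2 scale, and the difference was -0.19 for PTGES2 (limma adjusted p = 0.0022, and 0.051 without the intensity trend). The fitted differences of ALOX5AP and PTGDS were 4.63 and 1.04, but both genes were tested only because they were high in HSP90α-KO, so their direction follows from the filter and no p is read.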

How the results depend on the processing

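Over 54 results of single genes, 39 kept their direction and their side of the adjusted p under every alternative run. PTGS1 in all comparisons, TBXAS1 and ALOX5 in HSP90α-KO and ALOX5 in PUHr were among them. These counts include results of genes that pass the filter only through 1 group, which support nothing. ALOX5 in HSP90α-KO ranged from 1.00 to 1.19 and in PUHr from -2.43 to -0.92, the latter with an offset of 5 CPM.

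Some values turned. PTGES2 in HSP90α-KO was -0.01 with quantile normalization and -0.03 to 0.08 with a library left out. PTGDS in HSP90β-KO ran from -0.29 to 0.57 with a library left out, and LTA4H between the knockouts from -0.02 to 0.10. LTA4H in PUHr was -0.03 with median centring and -0.0042 to 0.03 with a library left out. PTGES3 in PUHr was -0.0021 with median centring and became a call at 0.12 with quantile normalization. Quantile normalization also reversed 2 called differences in PUHr, HSP90AA1 from -0.13 to 0.08 and HSP90AB1 from -0.24 to 0.05. Without the intensity trend PTGES2, TBXAS1, ALOX5 and LTA4H in HSP90β-KO, TBXAS1 in PUHr, and PTGES2 between the knockouts missed the threshold. The causes were not tested.

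Counts of changed genes in HSP90α-KO, HSP90β-KO and PUHr were 717, 272 and 751 when genes averaging below 1 on the log2 CPM scale were dropped, 823, 289 and 941 with an offset of 1 CPM, 346, 90 and 385 with 5 CPM, and 9230, 5864 and 8480 without a fold threshold, against 1760, 764 and 1660. PUHr had 2497 without a filter. Changed genes in HSP90β-KO were 312 higher and 452 lower. These counts were 371 and 370 with quantile normalization, and 292 and 490 with median centring. Members changed in HSP90α-KO were 2 with the mean filter and 1 with 5 CPM, against 4, which counts ALOX5AP and PTGDS. With a library left out they were 2 to 4: 2 when it was an HSP90α-KO library, where ALOX5AP and PTGDS are not tested, and 3 without EV replicate 3, where PTGDS was at 0.74. Without a fold threshold 5 members passed in HSP90β-KO and 4 in PUHr, against 1 each; PUHr had 4 without a filter and 0 with 5 CPM.

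Replicate numbers did not pair the libraries, as correlations of same-numbered deviations were -0.048 to 0.045. With the replicate block 1759, 763 and 1662 genes were changed, and no call of a member was altered. PTGS2, PTGES and HPGDS had at most 4 reads in any library of the resistance table, so no difference is read for them at this depth. For PTGDS and ALOX5AP no p is read.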
